A study of Mus musculus with 9 samples.

Results

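Cxcl1, Cxcl2, Cxcl3 and Cxcl5 encode the mouse CXC chemokines best known for drawing neutrophils, and their transcripts were followed in cultured 66cl4 cells, a mouse mammary carcinoma line. The 4 genes were taken by exact gene symbol from a table of 52208 genes, and all 4 were present and had enough counts for a test. Messenger RNA was sequenced in 9 libraries, 3 for each of 3 groups. In the scramble group a hairpin RNA with no target was combined with an empty vector. In the knockdown group the hairpin was directed at Eya3, whose protein is a phosphatase that also acts as a coactivator of transcription, again with the empty vector. In the add-back group the vector with the same Eya3 hairpin was joined by IKK2-SE, an IKK2 kinase that is always active, instead of the empty vector. Every group had thus gone through hairpin transduction with puromycin selection and through selection on mCherry for the second construct. The study therefore rests on 1 line and 1 Eya3 hairpin, and no group analysed here carried IKK2-SE with the scramble hairpin. The sample titles call the libraries of a group biological replicates, but whether they came from separate transductions is not in the labels. The p-values then rest only on the variation among these 9 libraries, which may leave out variation between separate transductions.

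Chemokines of this class carry a glutamate-leucine-arginine (ELR) motif ahead of the first cysteines and act on neutrophils mainly through the receptor CXCR2. Mice have no CXCL8, and CXCL1, CXCL2, CXCL3 and CXCL5 are the ligands usually measured in its place. Their genes are classical targets of NF-kB: IKK2 phosphorylates the inhibitor IkB, which frees NF-kB dimers to enter the nucleus, and tumour cells that secrete these chemokines can recruit neutrophils and related myeloid cells. The comparison of knockdown with scramble cells asks whether the chemokines differ when Eya3 is reduced, and that of add-back with knockdown cells asks whether they differ with active IKK2 while Eya3 stays low.

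The 4 genes lie on the plus strand of chromosome 5 within 146.6 kb (GRCm38/mm10, GENCODE M21). Cxcl5 spans 90759360 to 90761624, Cxcl3 spans 90786103 to 90789600, Cxcl1 spans 90891241 to 90893115 and Cxcl2 spans 90903871 to 90905938. Each is a protein-coding gene with 4 exons in its coding transcript. Between Cxcl5 and Cxcl3 lie Ppbp and Pf4, and between Cxcl3 and Cxcl1 lies Cxcl15, so the row holds other CXC chemokines as well.

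The sequences just ahead of the start sites are shown because a run of 11 bases is common to them. RefSeq promoter windows on GRCm38.p6 matched Cxcl1, Cxcl2 and Cxcl3, while the promoter of Cxcl5 was not analysed here. The stretch from 110 to 31 bases before the RefSeq start is printed on the plus strand, with the shared run in capitals.
Cxcl3, chr5:90785991-90786070: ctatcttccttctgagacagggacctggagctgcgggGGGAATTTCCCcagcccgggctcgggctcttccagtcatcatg
Cxcl1, chr5:90891135-90891214: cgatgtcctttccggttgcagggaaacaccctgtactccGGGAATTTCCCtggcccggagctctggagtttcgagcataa
Cxcl2, chr5:90903789-90903868: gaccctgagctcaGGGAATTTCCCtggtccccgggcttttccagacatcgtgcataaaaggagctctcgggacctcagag

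In each of the 3 windows the run is a pair of overlapping matches to the NF-kB consensus, 1 on each strand. The plus-strand match began 73 bases before the RefSeq start of Cxcl3, 71 before that of Cxcl1 and 97 before that of Cxcl2. RefSeq starts differ from the GENCODE gene starts given above, most of all for Cxcl2, so these distances depend on the annotation. Of 32851 RefSeq windows of 250 bases, 1281 (3.899%) held a match to the NF-kB consensus on either strand. The whole run GGGAATTTCCC was in 14 windows (0.04262%). A looser core, GGG followed by any 2 bases and TTTCC, overlaps the consensus. It was in 1.412% of windows and occurred again in Cxcl1, as GGGTGTTTCC on the minus strand, and in Cxcl2, as GGGCTTTTCC. No window of the 3 held the AP-1 motif TGANTCA, which was in 6.749% of all windows, and Cxcl2 held the CEBP motif TTNNGNAA, which was in 36.85%. The windows of the neighbouring Ppbp, Pf4 and Cxcl15 held no NF-kB match. A match describes letters and does not show that a factor bound there.

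The libraries held 63601403 to 81534534 counts, and 16766 genes had enough counts for a test. On the scale of CPM, counts scaled to a library of common size, Eya3 averaged 62.6 in scramble, 25.0 in knockdown and 26.6 in add-back libraries, so the hairpin label was borne out in both groups that carry it (log2 fold change -1.33 in knockdown against scramble, edgeR adjusted p = 5.97e-12). Ikbkb, the gene of IKK2, averaged 47.8, 44.3 and 48.6 CPM, and add-back did not pass against knockdown (log2 0.13, edgeR adjusted p = 0.0809). The IKK2-SE label was thus not borne out by this gene's counts. Whether transcripts of the construct are counted under Ikbkb was not tested. Of 11 markers of epithelium and of the line 8 were tested, with 6 called higher and 1 lower in knockdown and 2 higher and 2 lower with add-back. Krt5, among the 6, averaged 0.0453 CPM in scramble and 0.319 in knockdown cells. It had enough counts for a test only through the knockdown libraries, where it was high. Its rise in that count was thus partly fixed by the need for enough counts. Over all tested genes 57.5% were called in knockdown and 10.4% with add-back. The keratin Krt8 averaged 628, 1330 and 1070 CPM in scramble, knockdown and add-back cells and Vim 2770, 3810 and 2690 CPM, and both were lower with add-back. Krt7 (1.37, 2.06 and 3.2 CPM) and Esr1 (11.8, 16.4 and 20 CPM) were the 2 called higher with add-back, a count that was 1 without knockdown replicate 2 and 0 without add-back replicate 1. Krt14 (1.24, 0.305 and 0.12 CPM) was the 1 called lower in knockdown. The epithelial adhesion genes Epcam and Cdh1 were near 0 in every library, with at most 5 and 8 counts.

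With Eya3 reduced, 3 of the 4 chemokines fell steeply. Cxcl5 was 8.54-fold lower, Cxcl3 6.76-fold lower and Cxcl1 4.83-fold lower in knockdown than in scramble cells, and Cxcl2 was barely detected in either group. In the same comparison 57.5% of all tested genes were called in either direction and 29.9% were called lower, and 63.6% had groups that did not overlap, as Cxcl1, Cxcl3 and Cxcl5 did. Falls at least as large as that of Cxcl1, the smallest of the 3, were called for 723 genes (4.31%).

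**Figure D1:**
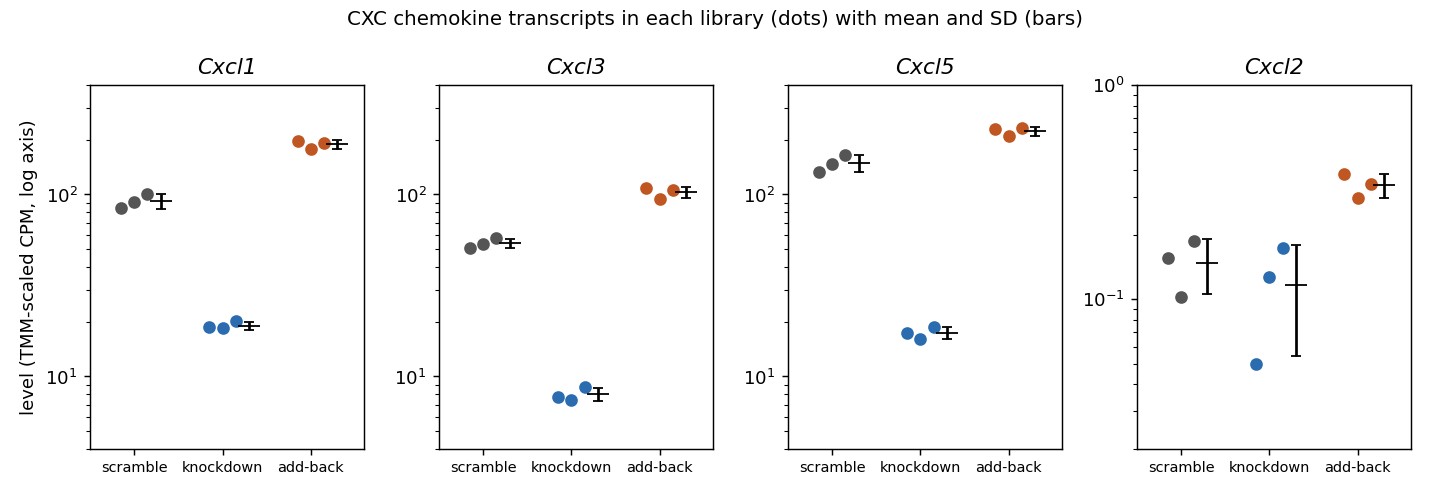
CPM of Cxcl1, Cxcl2, Cxcl3 and Cxcl5 in each of the 9 libraries (points, log axis) with the group mean and SD (bars, n = 3), for scramble, knockdown and add-back cells. Cxcl1, Cxcl3 and Cxcl5 show 3 separate levels with knockdown lowest and add-back highest, while the scramble and knockdown points of Cxcl2 overlap below 0.2 CPM.

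Cxcl1, long known as KC in the mouse, had 83.8, 90.9 and 101 CPM in scramble libraries 1 to 3 and 18.6, 18.4 and 20.1 CPM in knockdown libraries 1 to 3. Every knockdown library lay far below every scramble library. The log2 fold change was -2.27 ± 0.06 (standard error), with an edgeR quasi-likelihood adjusted p of 7.8e-14.

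Cxcl3 is a close relative of Cxcl2 that also acts through CXCR2. Its scramble libraries held 50.8, 53.6 and 57.4 CPM and its knockdown libraries 7.74, 7.46 and 8.75 CPM. The groups were again separated by several times their own range, with a log2 fold change of -2.76 ± 0.07 (edgeR adjusted p = 1.3e-14).

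Cxcl5, called LIX in the mouse and a product of epithelial cells in many tissues, had 133, 147 and 165 CPM in the scramble libraries and 17.4, 16.1 and 18.6 CPM in the knockdown libraries. No library of either group came near the other group. Its log2 fold change of -3.09 ± 0.08 was the largest fall of the 4 (edgeR adjusted p = 2.55e-13).

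Cxcl2, also known as MIP-2 and typically made by macrophages and other stimulated cells, had only 10, 8 and 14 counts in the scramble libraries and 4, 10 and 13 in the knockdown libraries. These correspond to 0.155, 0.102 and 0.186 CPM and to 0.0499, 0.127 and 0.173 CPM. The groups overlapped, and the log2 difference of -0.34 ± 0.50 was smaller than its error (edgeR adjusted p = 0.591). Leaving out knockdown replicate 1 turned its sign, to 0.03. No difference of Cxcl2 was detectable at this depth. Cxcl2 stood at the 6.73rd percentile of tested genes by scramble CPM, a scale that takes no account of length. It entered the test because 2 scramble, 1 knockdown and 3 add-back libraries reached the filter's cutoff of 0.132 CPM.

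With active IKK2 in the knockdown cells all 4 chemokines were higher. Cxcl3 rose 12.9-fold, Cxcl5 12.8-fold, Cxcl1 9.91-fold and Cxcl2 2.91-fold in add-back against knockdown cells. In this comparison 10.4% of the tested genes were called and 5.61% were called higher, while 24.7% had groups that did not overlap. Of all calls 53.8% were higher, or 65.9% when scaled by library totals. Rises at least as large as that of Cxcl1 were called for 49 genes (0.292%), among them Cxcl3 and Cxcl5. Knockdown libraries are shared with the comparison above, so a low knockdown value would enter both differences.

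Cxcl3 had 108, 94.7 and 106 CPM in add-back libraries 1 to 3, against the 7.46 to 8.75 CPM of knockdown. The log2 fold change was 3.69 ± 0.07 (edgeR adjusted p = 5.61e-15). Cxcl5 had 228, 209 and 232 CPM, and its log2 fold change of 3.68 ± 0.08 was of like size (edgeR adjusted p = 6.15e-13). Both genes rose by nearly the same factor, and add-back replicate 2 was the lowest add-back library for each.

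Cxcl1 had 196, 177 and 192 CPM in the add-back libraries, all about an order of magnitude above the 18.4 to 20.1 CPM of knockdown. Its rise was 3.31 ± 0.07 on the log2 scale (edgeR adjusted p = 9.09e-15).

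Cxcl2 had 29, 21 and 24 counts in the add-back libraries, or 0.383, 0.297 and 0.343 CPM, and these lay above all knockdown and all scramble libraries. Its log2 fold change against knockdown was 1.54 ± 0.45, which passed narrowly (edgeR adjusted p = 0.0398). The call was lost when any of 7 libraries was left out, namely scramble replicate 1 or 2, knockdown replicate 1 or 2, or any add-back replicate. The adjusted p was then 0.0596 to 0.169, and the change was 1.18 to 1.93 on the log2 scale over all 9 omissions. Cxcl2 remained a trace transcript in all 3 groups, with 74 counts summed over the add-back libraries, 32 over scramble and 27 over knockdown. The coding sequences of Cxcl2 and Cxcl3 were 89.77% identical, and 61 of the 1060 stretches of 50 bases in the Cxcl2 transcript (5.755%) also occur in Cxcl3. How reads matching both were counted is not given in the sources used here.

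In add-back cells each of the 4 stood above the scramble level. Cxcl1 was 2.05-fold, Cxcl3 1.9-fold and Cxcl5 1.5-fold higher in add-back than in scramble cells, with no overlap of libraries. Their log2 fold changes were 1.04 ± 0.06, 0.93 ± 0.06 and 0.59 ± 0.07, with edgeR adjusted p of 3.49e-10, 1.44e-09 and 4.4e-06. Cxcl2 was 2.3-fold higher (log2 1.20 ± 0.44, edgeR adjusted p = 0.0298), a call lost without scramble replicate 1 or 2 or add-back replicate 1 or 3 (adjusted p 0.0564 to 0.131). In this comparison 55.8% of all tested genes were called and 27% were called higher, and 61.1% had groups that did not overlap. It shares its libraries with both other comparisons and adds no independent evidence to them.

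Some libraries were extreme for every member. Scramble replicate 3 and knockdown replicate 3 were the highest library of their group for all 4 genes, and add-back replicate 2 was the lowest of its group for all 4. The coefficient of variation was 5.11% to 10.7% in every group for Cxcl1, Cxcl3 and Cxcl5, and 12.6% to 53.2% for Cxcl2.

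Levels of different genes can be set side by side only per length. On a scale of CPM per kilobase of coding transcripts, Cxcl1 (96.3 ± 8.85, SD, n = 3) and Cxcl5 (94.2 ± 10.1) had like levels in scramble cells, and Cxcl3 (53.1 ± 3.26) stood below both. In knockdown cells the order was Cxcl1 (20 ± 1.02), Cxcl5 (11 ± 0.808) and Cxcl3 (7.86 ± 0.663), with no overlap between neighbours. In add-back cells it was Cxcl1 (198 ± 10.3), Cxcl5 (142 ± 7.77) and Cxcl3 (101 ± 6.9). Cxcl2 was last in each group, at 0.0794 ± 0.0227, 0.0628 ± 0.0334 and 0.183 ± 0.0231 CPM per kilobase.

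The summed level of the 4 was 244 ± 22.2 CPM per kilobase in scramble, 38.9 ± 2.47 in knockdown and 441 ± 24.7 in add-back cells. The make-up of that sum differed between the groups. Cxcl1 gave 39.5% of it in scramble, 51.3% in knockdown and 44.9% in add-back cells. Cxcl5 gave 38.6%, 28.3% and 32.1%, and Cxcl3 gave 21.8%, 20.2% and 22.9%. Cxcl2 gave 0.0325%, 0.16% and 0.0415%. The share of Cxcl1 was highest where the sum was lowest, and add-back cells lay between the other groups for Cxcl1 and Cxcl5. These shares depend on the length assigned to each gene: with the longest annotated transcript, Cxcl5 gave 55.2% and Cxcl1 34.0% in scramble cells, 42.7% and 46.6% in knockdown cells, and 47.9% and 40.3% in add-back cells. Which of Cxcl1 and Cxcl5 leads in scramble and in add-back cells therefore turns on the length used. The direction of the knockdown shift, toward Cxcl1 and away from Cxcl5, follows from their fold changes and is the same for any lengths.

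**Figure D2:**
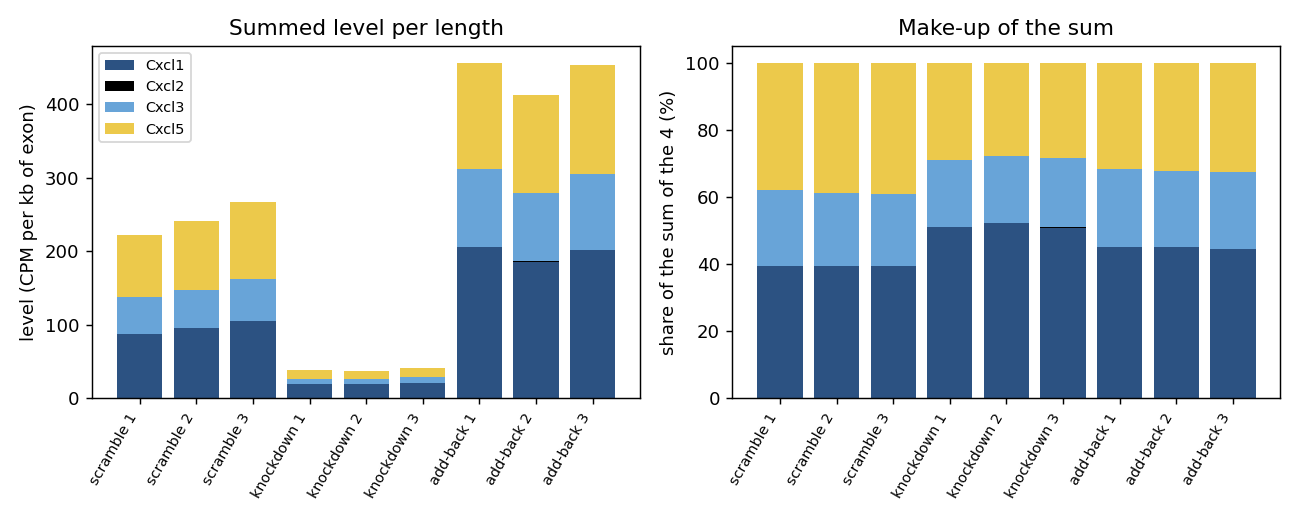
Stacked bars for each of the 9 libraries, with the level of each chemokine in CPM per kilobase of exon (left) and its share of their sum in percent (right). Cxcl1 is 39.5% of the sum in scramble and 51.3% in knockdown cells and Cxcl5 is 38.6% and 28.3%, with libraries of a group nearly alike and Cxcl2 barely visible.

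Ratios of counts within a library need neither length nor scaling and compare the size of the members' changes. The log2 ratio of Cxcl1 to Cxcl5 was -0.67, -0.70 and -0.71 in scramble libraries, 0.09, 0.19 and 0.11 in knockdown libraries and -0.22, -0.24 and -0.27 in add-back libraries. The 3 groups were fully apart, with a mean log2 ratio 0.82 higher in knockdown than in scramble libraries and lower again in add-back libraries. Cxcl3 stood between the other two in the fall: the Cxcl1 to Cxcl3 ratio was 0.49 higher and the Cxcl3 to Cxcl5 ratio 0.33 higher in knockdown than in scramble cells. In the rise, Cxcl3 and Cxcl5 kept their proportion: their log2 ratio was -1.12 ± 0.04 in knockdown and -1.12 ± 0.03 in add-back libraries (SD, n = 3), the groups overlapped, and the exact permutation p was 1. Libraries did not overlap in 11 of the 12 ratio comparisons made (6 pairs, 2 comparisons). The 6 pairs share 4 genes and are not independent, and those with Cxcl2 rest on its 4 to 29 counts per library. The share of all gene pairs without overlap was not computed. For single genes it was 63.6% in knockdown against scramble and 24.7% in add-back against knockdown. Each of the 11 had a two-sided exact permutation p of 0.1, which is the smallest that 3 against 3 libraries can give, and a Benjamini-Hochberg adjusted p of 0.109. None can pass 0.05 in this design.

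**Figure D3:**
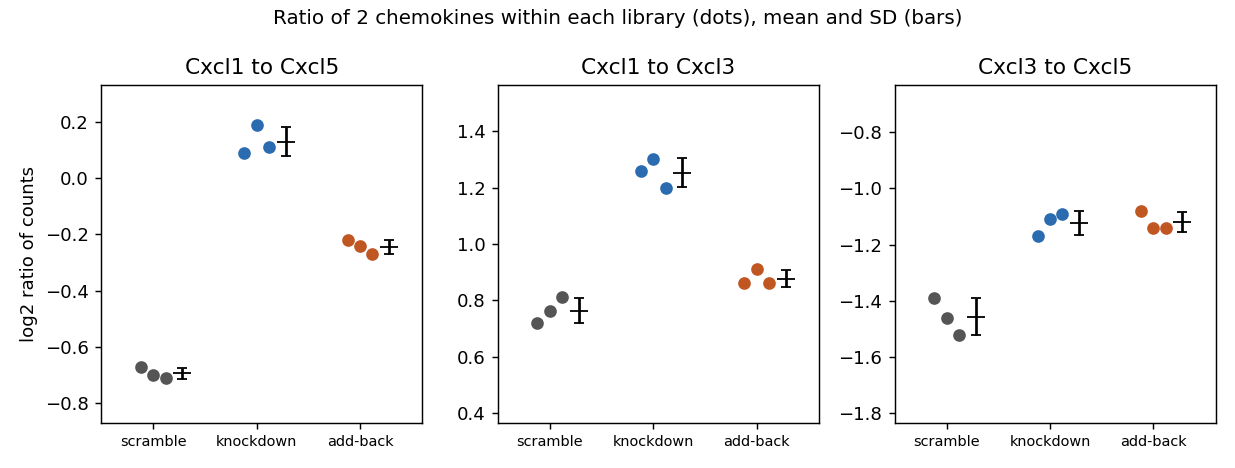
Log2 ratio of counts of 2 chemokines within each library (points) with the group mean and SD (bars, n = 3), for scramble, knockdown and add-back libraries. The 3 groups are apart for Cxcl1 to Cxcl5, while knockdown and add-back libraries overlap near -1.12 for Cxcl3 to Cxcl5.

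AU-rich elements, built on the pentamer ATTTA, are bound by proteins such as tristetraprolin that hasten decay of chemokine messages. The annotated 3' untranslated regions held 7 copies of ATTTA in Cxcl1, 11 in Cxcl2, 5 in Cxcl3 and 5 in Cxcl5. Per kilobase this was 11.8, 15, 7.75 and 4.5, against a median of 1.33 over 11382 tested genes with such a region. At least as high a density was found in 0.439% of those genes for Cxcl1, 0.193% for Cxcl2, 1.87% for Cxcl3 and 8.79% for Cxcl5. By number of copies the shares were larger, at 12% for Cxcl1, 4.51% for Cxcl2 and 20.4% for both Cxcl3 and Cxcl5. In coding sequence Cxcl5 had 48.26% to 49% identity to the other 3, while Cxcl1 shared 75.58% with Cxcl2 and 72.61% with Cxcl3. Identity was taken over all aligned positions, gaps included. The coding sequence of Cxcl5 has 399 bases, against 291 in Cxcl1 and 303 in Cxcl2 and Cxcl3. Part of its lower identity is therefore a difference in length.

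Among the 11 other CXC chemokines, 4 had enough counts for a test, and all 4 fell in knockdown cells. In that comparison 29.9% of all tested genes were called lower. Ppbp, the platelet basic protein gene beside Cxcl5 and another ELR chemokine, averaged 0.885 CPM in scramble, 0.115 in knockdown and 0.283 in add-back cells. It fell by 2.92 on the log2 scale (edgeR adjusted p = 1.25e-06) and rose by 1.28 ± 0.37 with add-back (edgeR adjusted p = 0.0378), but stayed below scramble (log2 -1.64, edgeR adjusted p = 0.000177). Unlike Cxcl1, Cxcl2, Cxcl3 and Cxcl5, it did not pass the scramble level. Its rise over knockdown was lost when scramble replicate 1 or 2, any knockdown replicate or add-back replicate 3 was left out, with an adjusted p up to 0.15.

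Cxcl10 and Cxcl11, interferon-inducible ligands of CXCR3 that attract T cells, had the same order of groups as Ppbp. Cxcl10 averaged 12.7, 3.82 and 6.33 CPM in scramble, knockdown and add-back cells, with log2 fold changes of -1.74 in knockdown against scramble (edgeR adjusted p = 5.53e-09), 0.73 in add-back against knockdown (0.00138) and -1.01 in add-back against scramble (2.47e-06). Cxcl11 averaged 1.10, 0.236 and 0.469 CPM, and its log2 difference of 0.99 between add-back and knockdown passed narrowly (edgeR adjusted p = 0.0469) and was lost without any 1 of the 9 libraries (0.0554 to 0.179).

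Cxcl12, a homeostatic chemokine that acts through CXCR4, went the other way with active IKK2. It averaged 233 CPM in scramble, 103 in knockdown and 90.4 in add-back cells, and add-back was lower than knockdown by a small margin (log2 -0.19, edgeR adjusted p = 0.00319).

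The ELR chemokine Cxcl15, known as lungkine and located between Cxcl3 and Cxcl1, had 0 counts in all scramble and knockdown libraries and 21, 7 and 16 counts in the add-back libraries. It was at least 15.8-fold higher in add-back than in knockdown cells and at least 14.8-fold higher than in scramble cells, taking 3 counts for the whole group as the floor for counting error. It missed the filter and was not tested. Pf4, Cxcl9, Cxcl13 and Cxcl16 had at most 5 counts in any library, and Cxcl14 and Cxcl17 had 0 in all 9.

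**Figure D4:**
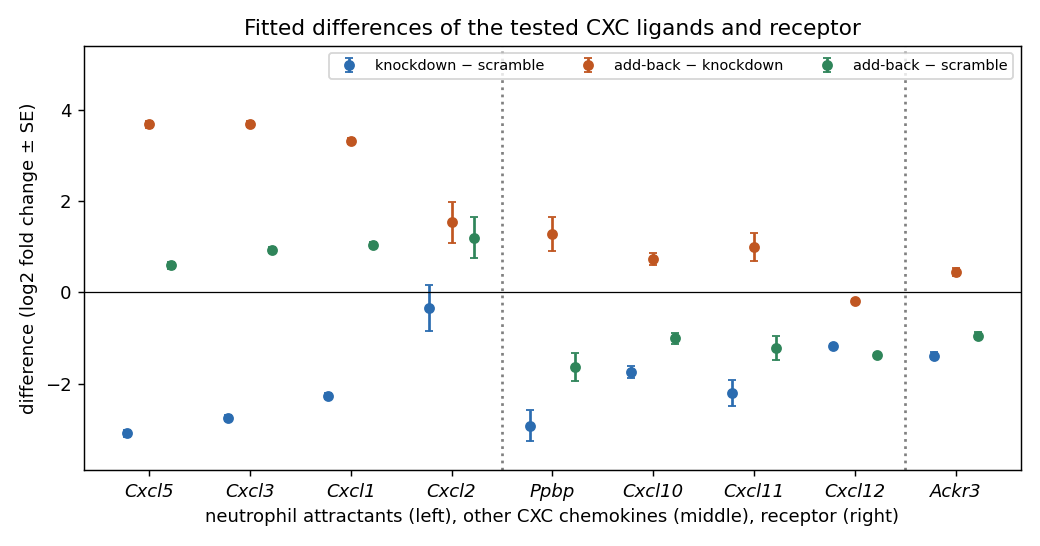
Fitted log2 fold change (point) with its standard error (bar) for the tested CXC genes, in 3 colours for the 3 comparisons. Cxcl1, Cxcl2, Cxcl3 and Cxcl5 (left, labelled neutrophil attractants) are followed by the 4 other CXC chemokines tested and the receptor Ackr3. The green points (add-back minus scramble) lie above 0 for the 4 genes on the left. They lie below 0 for Ppbp, also an ELR chemokine, and for Cxcl10, Cxcl11, Cxcl12 and Ackr3, from -0.95 to -1.64.

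The cells barely expressed the receptors for these ligands. Cxcr1 and the decoy receptor Ackr1 had 0 counts in all 9 libraries, and Cxcr2 had at most 3. Ackr3, an atypical receptor that takes up CXCL12 and CXCL11, averaged 20.9, 7.96 and 10.8 CPM in scramble, knockdown and add-back cells, and fell in knockdown (log2 -1.39, edgeR adjusted p = 4.38e-10) and rose with add-back (log2 0.44, edgeR adjusted p = 0.0026).

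Of the cytokines and receptors that induce these chemokines, 13 of 16 were tested. In knockdown against scramble 2 were called higher and 8 lower (median log2 -0.24, against 0 over all tested genes), and in add-back against knockdown 8 were higher and 1 lower (median 0.27). Of all tested genes 57.5% were called in the first comparison and 10.4% in the second. The 2 higher in knockdown were Il1r1 and Traf6, and the count was 1 in 9 of 18 alternatives, among them leaving out scramble replicate 1 or 2, knockdown replicate 2 or 3 or add-back replicate 2 or 3 (Il1r1 had an edgeR adjusted p of 0.049). The 1 lower with add-back was Traf6 (edgeR adjusted p = 0.049), and this count was 0 in 10 of 18, among them leaving out replicate 1 or 2 of scramble or knockdown or replicate 1 or 3 of add-back. Il1a, the interleukin that signals through Il1r1 to NF-kB, rose from 0.0562 CPM in knockdown to 8.55 in add-back cells (log2 7.22 ± 0.33, edgeR adjusted p = 5.34e-10) and was at 0.0449 in scramble cells. None of its 6 scramble and knockdown libraries reached the filter's cutoff of 0.132 CPM, so it entered the test only through the add-back group, where it was high. Tlr2, a receptor for bacterial lipoproteins, averaged 9.11, 4.42 and 9.14 CPM in scramble, knockdown and add-back cells. It fell by 1.04 and rose by 1.05 on the log2 scale. Tnfrsf1b, a receptor for tumour necrosis factor, rose by 0.50 and Il17rc, a receptor subunit for interleukin 17, by 0.30 with add-back. Tnf, Il1b and Il17a were at or near 0 counts throughout.

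All 14 transcriptional regulators in the list were tested: 2 were called higher and 10 lower in knockdown (median log2 -0.32), and 7 higher and 1 lower with add-back (median 0.29). Of all tested genes 57.5% were called in knockdown in either direction, 29.9% of all tested genes were called lower there, and 10.4% were called with add-back. Nfkbiz, which encodes the nuclear cofactor IkB-zeta, averaged 18.2, 16.0 and 44.1 CPM in scramble, knockdown and add-back cells, a rise of 1.46 ± 0.06 on the log2 scale with add-back (edgeR adjusted p = 1.42e-10). Its small fall in knockdown (log2 -0.19, edgeR adjusted p = 0.0191) was lost without scramble replicate 1 or 2 or knockdown replicate 1 or 2 (0.0633 to 0.105). Cebpd, a C/EBP factor of acute-phase responses, averaged 7.5, 9.79 and 39.8 CPM and rose by 2.03 ± 0.09 with add-back. Bcl3, an IkB-like partner of NF-kB p50, averaged 11.4, 1.41 and 3.07 CPM. It fell by 3.01 in knockdown and rose by 1.12 with add-back. Nfkb1, the p50 gene, rose by 0.56 ± 0.04 with add-back.

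Of the 15 regulators of message stability, all tested, 5 were higher and 6 lower in knockdown (median log2 0.05), and 3 were higher and 1 lower with add-back (median 0.03). The shares called over all tested genes were 57.5% in knockdown and 10.4% with add-back. Zc3h12a encodes Regnase-1, an RNase that cleaves messages of inflammatory genes. It averaged 18.9, 10.3 and 23.6 CPM in scramble, knockdown and add-back cells. It fell by 0.88 and rose by 1.20 on the log2 scale, in the same direction as the chemokines. Zfp36l1, a relative of tristetraprolin, fell by 0.32 in knockdown and rose by 0.53 with add-back. Zfp36l2, another relative, went the other way. It rose by 0.92 in knockdown and fell by 0.19 with add-back, the latter lost without add-back replicate 3 (edgeR adjusted p = 0.061). Mapkapk2, the kinase that inactivates tristetraprolin, rose by 0.15 with add-back, a call lost without knockdown replicate 2 or 3 or add-back replicate 1 or 2.

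Among all tested genes 57.5% were called in knockdown and 10.4% with add-back. Of 13 proteases that cleave chemokines, 6 were tested: 1 was higher and 4 lower in knockdown (median log2 -0.76), and 4 were higher and 1 lower with add-back (median 0.75). The 1 lower with add-back was Mmp14 (log2 -0.16, edgeR adjusted p = 0.0184), lost without knockdown replicate 1 or 2 or add-back replicate 1 or 3. Mmp2, among the 4 lower in knockdown, averaged 0.325 CPM in scramble and 0.042 in knockdown cells. It passed the filter only through the scramble libraries, where it was high. Its fall in that count and median was thus partly fixed by the filter. Mmp9 (gelatinase B) averaged 12.9, 1.19 and 2.70 CPM in scramble, knockdown and add-back cells. It fell by 3.44 and rose by 1.19 on the log2 scale. Mmp3 (stromelysin) rose by 3.77 ± 0.30 to 2.99 CPM with add-back. Mmp13, a collagenase, rose in both comparisons, by 2.01 and 2.74. Its scramble libraries held 3, 9 and 0 counts, and the first value was 3.3 without scramble replicate 2 and 1.42 without scramble replicate 3. Ctsl, a lysosomal cathepsin, fell by 0.65 and rose by 0.31. Of 12 proteoglycans and heparan sulphate enzymes that hold chemokines at cell surfaces, 10 were tested, with 7 higher and 2 lower in knockdown (median log2 0.27) and 2 higher and 1 lower with add-back (median -0.01). The 2 higher were Gpc4 and Sdc1, and the call of Sdc1 (log2 0.14, edgeR adjusted p = 0.038) was lost in 9 of 18 alternatives, among them leaving out any library but scramble replicate 3 or add-back replicate 2. The glypican Gpc4 fell by 2.52 in knockdown and rose by 0.57 with add-back, and Gpc1 rose by 0.58 and fell by 0.29.

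A list of other neutrophil attractants and growth factors, which also holds Csf1 and Anxa1, had 10 of 12 members tested. Of all tested genes 57.5% were called in knockdown and 10.4% with add-back. From this list 1 was higher and 5 lower in knockdown (median log2 -0.37), and with add-back 7 were higher and 1 lower (median 2.58). Of the 7, Csf2 and S100a8 passed the filter only through the add-back libraries, where they were high, so their rises in that count and median were partly fixed by the filter. Csf3, the granulocyte colony-stimulating factor gene, averaged 1.34, 0.0504 and 4.29 CPM in scramble, knockdown and add-back cells. It fell by 4.66 ± 0.37 and rose by 6.34 ± 0.33 on the log2 scale. Saa3, an acute-phase serum amyloid, averaged 1.27, 0.265 and 20 CPM, and Lcn2, an iron-siderophore binding protein of neutrophils and epithelia, 7.98, 3.22 and 273 CPM. Their rises with add-back were 6.23 ± 0.19 and 6.41 ± 0.13. Complement C3, the source of anaphylatoxin C3a, rose in both comparisons, by 0.25 and 1.51.

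By root mean square distance of centred log2 CPM over the 9 libraries, the gene most like the mean profile of the 4 chemokines was Ccl5, at 0.214 log2 units among 11052 candidates. Ccl5, a CC chemokine for T cells and monocytes, averaged 11.3 CPM in scramble, 2.87 in knockdown and 20.1 in add-back cells. Next came Neurl3 (0.471), Slpi (0.478), Ltbp2 (0.546) and D030025P21Rik (0.547). Slpi, a secreted inhibitor of neutrophil elastase, averaged 24.5, 2.83 and 46.4 CPM. The members' own distances to that mean were 0.143 for Cxcl1, 0.306 for Cxcl3, 0.411 for Cxcl5 and 0.815 for Cxcl2. Cxcl3, Cxcl5 and Cxcl2 were thus farther from it than Ccl5, and Cxcl2 was also farther than Slpi. The mean includes the members themselves. Candidates had a mean log2 CPM of at least 1, a level that Cxcl2 did not reach. Against the mean of Cxcl1, Cxcl3 and Cxcl5 alone, Slpi was nearest (0.241), followed by Ccl5 (0.367). The closest pair of members was Cxcl3 and Cxcl5 (0.162).

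Genes nearby on chromosome 5 went in both directions. Within 1 Mb of the 4 genes 15 other genes were tested. In knockdown against scramble 6 were called higher and 3 lower, with a median log2 fold change of 0.3, and with add-back 2 were higher and 1 lower, with a median of 0.07. Over all tested genes 57.5% and 10.4% were called. The 15 ran from -2.92 to 2.18 in knockdown and from -0.53 to 1.28 with add-back. Areg, the epidermal growth factor receptor ligand amphiregulin, moved opposite to the chemokines in both. It averaged 14.0, 51.0 and 35.6 CPM in scramble, knockdown and add-back cells. It rose by 1.87 ± 0.06 (edgeR adjusted p = 2.94e-13) and fell by 0.52 ± 0.06 (1.27e-05). Mthfd2l, between Cxcl2 and Areg, rose by 0.30 in knockdown (edgeR adjusted p = 0.00594) and differed by 0.07 with add-back (0.723). Ppbp, inside the cluster, was the 1 neighbour with both a fall and a rise of more than 1 log2 unit.

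**Figure D5:**
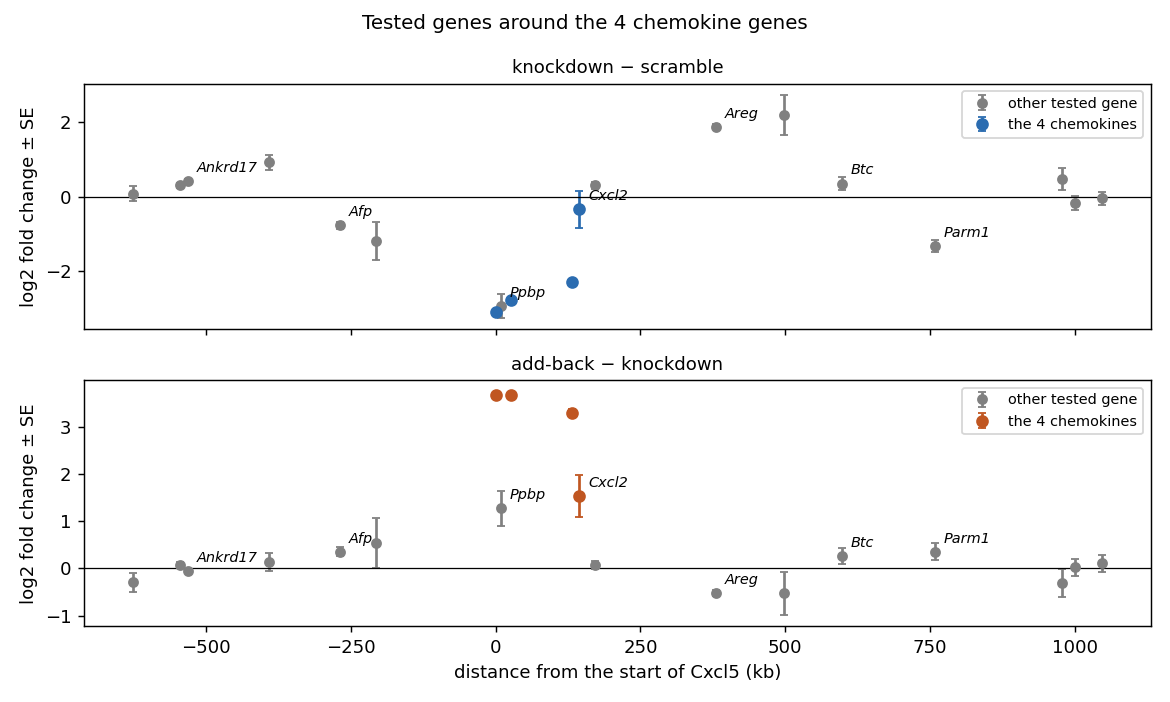
Log2 fold change (point) and standard error (bar) of the tested genes within 1 Mb of the 4 chemokine genes, against distance from the start of Cxcl5 in kb, for knockdown minus scramble (top) and add-back minus knockdown (bottom). Cxcl1, Cxcl3, Cxcl5 and Ppbp lie lowest in the top panel, with Cxcl2 at -0.34. The 15 other genes, Ppbp among them, run there from -2.92 to 2.18 (median 0.3). In the bottom panel the 4 chemokines and Ppbp lie highest, and the 15 run from -0.53 to 1.28 (median 0.07). Areg lies above 0 in the top panel and below 0 in the bottom panel.

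The 11-base promoter run was looked up in other genes after the values were seen. Of 11 other genes with it, 8 were in the table and 5 were tested, and Il16 was the 1 of 5 called in add-back against knockdown (log2 1.55, edgeR adjusted p = 0.00645), where 10.4% of all tested genes were called. In knockdown against scramble, where 57.5% were called, Hpn (log2 -2.22, edgeR adjusted p = 4.37e-05) and Zfp84 (log2 -0.66, edgeR adjusted p = 5.85e-07) fell. Both were still below scramble in add-back cells, by log2 values of -2.04 and -0.59. Neither Kremen2 nor 4930477N07Rik was called with add-back.

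Genes of other cell types could enter a culture's counts, so their levels are given beside the chemokines. Of 12 neutrophil markers none had enough counts for a test, Mpo, Retnlg and Mmp8 had 0 counts in all 9 libraries, and the summed level was 0.12 to 0.166 CPM in scramble, 0.051 to 0.093 in knockdown and 0.297 to 0.386 in add-back libraries. The 10 other leukocyte markers summed to 29.6 to 30.6, 11.7 to 12.6 and 15.5 to 16.2 CPM in scramble, knockdown and add-back libraries. Most of that was Cd68, which averaged 14.5, 4.19 and 3.43 CPM, and Cd14, which averaged 15.3, 7.5 and 11.9 CPM. Both fell in knockdown, and Cd14 was the 1 of 4 tested markers called higher with add-back. Csf1r averaged 0.0824, 0.195 and 0.144 CPM, and Ptprc and Adgre1 had at most 11 and 2 counts in any library. The 12 endothelial and fibroblast markers summed to 56.5 to 59.1, 50.9 to 56.6 and 57.6 to 61.3 CPM, and Pdgfra made up most of that. Of the 9 tested, 3 were called higher and 3 lower in knockdown, and 4 higher and 2 lower with add-back. Dcn and Acta2, among the 4 higher, passed the filter only through the add-back libraries, where they were high. Their rises in that count were thus partly fixed by the filter. Over all tested genes 57.5% were called in knockdown and 10.4% with add-back. Cdh5, an endothelial cadherin, averaged 4.36, 0.226 and 0.634 CPM in scramble, knockdown and add-back cells, so it too was lowest in knockdown. Col1a2, a collagen chain, averaged 0.0682, 4.18 and 1.66 CPM, Pdgfrb averaged 1.24, 7.08 and 10.7 CPM, and Dcn had 0 counts in scramble cells and averaged 0.0647 and 0.712 CPM in the others. The part of these markers in the chemokine differences was not tested. In bulk RNA, fewer cells expressing a chemokine and less transcript per cell cannot be told apart.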

How the data were processed

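The values are raw counts of reads per gene symbol, deposited as whole numbers by the authors and made from reads processed with FastQC, MultiQC and STAR on mm10, per the submitters' processing notes. Counter, annotation and strandedness: not given in the sources used here. Reads of overlapping or near-identical genes may not be told apart. Columns were matched by arm and replicate. Those with the Eya3 hairpin say KD3 where titles say KD2, so the hairpin's number is not stated here. Replicate counts differed by more than sampling noise (chi-square per degree of freedom 3.62 to 18.8).

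Genes were filtered by filterByExpr (minimum count 10, minimum total 15), scaled by TMM and tested with edgeR 4.0.16 (R 4.3.3) by robust quasi-likelihood fits of the 3 groups to the 9 libraries together, leaving 6 residual degrees of freedom. P-values were adjusted by Benjamini-Hochberg over 16766 genes and called at 0.05. CPM are TMM-scaled, and a standard error is the log2 fold change divided by the square root of F. Lengths are unions of exons of protein-coding transcripts (GENCODE M21), and promoter windows are from RefSeq. Ratios of counts used a pseudocount of 0.5 and exact permutation tests. The procedure was tested on simulated data. The members, the 12 gene lists and the naming rule (up to 4 per list with the smallest adjusted p in add-back against knockdown, all other CXC chemokines, 5 genes nearest in profile, neighbours within 1 Mb) were chosen with earlier results of these data known. Alternatives were other scalings, filters, tools (limma voom 3.58.1, DESeq2 1.42.0), a replicate block and leaving out each library.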

Additional observations from a re-analysis of the deposited data

How the results depend on the processing

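Cxcl1, Cxcl3 and Cxcl5 kept their direction and side of the threshold in all 162 alternative fold changes computed, and the 4 members together in 201 of 213. The exceptions were Cxcl2: leaving out 1 library gave 1.18 to 1.93 on the log2 scale for add-back against knockdown, 1 to 1.41 for add-back against scramble and -0.72 to 0.03 for knockdown against scramble, positive without knockdown replicate 1. Cxcl2 was not tested under a filter of 1 CPM in 3 libraries. Other sign changes were in differences that did not pass the test. Leaving out 1 library gave -0.20 to 1.96 for Il1a in knockdown against scramble and, for add-back against scramble, -0.07 to 0.08 for Tlr2 (-0.01 scaled by library totals), -0.02 to 0.18 for Neurl3 and -0.13 to 0.06 for D030025P21Rik. The difference in the log2 ratio of Cxcl3 to Cxcl5 between add-back and knockdown was then -0.02 to 0.02. The cause was not tested. Over all tested genes, deviations of same-numbered replicates from their group means had correlations of -0.01 to 0.11. The same number gave the highest correlation in 3 of 9 pairings (3 comparisons of 3 numbers, which share libraries). A replicate block moved the genes called in add-back against knockdown from 1749 to 2678, and scaling by library totals moved the share of those calls that were higher from 53.8% to 65.9%. Without length correction, Cxcl1 and Cxcl5 gave 31.2% and 50.4% of the sum in scramble, 42.8% and 39.0% in knockdown and 36.6% and 43.4% in add-back cells. Lengths from exons of all transcripts were tried after seeing the data. Of 78 counts of called genes in the lists, 61 stayed within 1.5 times in every alternative, and the others were counts of at most 4 genes.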
